A study of Caenorhabditis elegans with 2 samples.

Results

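The data describe 303 of the 1815 ChIP-seq peaks that an anti-GFP antibody gave in *Caenorhabditis elegans* larvae, taken whole at the L4 stage (47 hours). These are the peaks whose summit, the position of highest signal, lay upstream of a protein-coding gene that reads away from it. No second gene started nearby on the other side of the summit and read the opposite way. Each summit was at most 1000 bp upstream of the nearest annotated protein-coding 5′ end. It had no opposite-strand 5′ end at most 2000 bp away on its other side, and no tRNA, snoRNA or snRNA 5′ end within 200 bp. The rule used positions and not peak heights or sequence, and the last condition removed 78 summits that met the others. The 303 summits belonged to 291 genes and made up 16.7% of the peaks. Both samples, biological replicates 1 and 2 of 1 group, came from strain RW12267. Its *vab-7* gene on chromosome III carries a CRISPR insertion (allele st12267) that adds TY1, EGFP and 3xFLAG to the protein. The worms were synchronised as starved L1 larvae after bleaching, and no sex was recorded in the labels. Whole animals were used, so the cells behind a peak are not known. No untagged strain or input was analysed here, so whether a peak depends on the tagged protein was not tested.

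VAB-7 is a homeodomain transcription factor of the Even-skipped class, known for patterning the posterior body and for setting the identity of a class of motor neurons. Homeodomains typically bind short AT-rich words around TAAT. In *C. elegans* many transcripts are trans-spliced, so that a short leader RNA replaces their original 5′ end. An annotated 5′ end can therefore lie downstream of the place where transcription begins, and some genes are read as the later members of operons. Neighbouring genes that point away from each other can share a divergent promoter. The summits described here had no opposite-strand 5′ end at most 2000 bp away on the other side. For 102 of the 303 the nearest gene upstream was still on the opposite strand, most often farther off. No transcription was measured.

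Of the 20 strongest summits, 12 shared a stretch of sequence with another of the 303, against 71 (23.4%) of all 303. Divergent summits shared stretches among themselves at 26.7%. The first set, upstream of *eel-1* (a HECT-type ubiquitin ligase), *rps-24* (a small-subunit ribosomal protein), *Y62F5A.12* and *ttll-4* (a tubulin-modifying ligase), is shown because its members held a common block of CCCCTTTTCG type. Each line gives the summit and 50 bases to each side of it, 5′ to 3′ on the strand of the gene. The reference is RefSeq's copy of WBcel235, whose chromosomes are those of ce11. Capitals mark the bases that lie in a stretch of 16 bases found, on either strand, at another of the 303 summits at any distance.
eel-1, chrIV:3050427-3050527, strand -: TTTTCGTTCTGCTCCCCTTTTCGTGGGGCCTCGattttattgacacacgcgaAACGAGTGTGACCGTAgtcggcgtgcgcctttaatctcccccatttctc
rps-24, chrIV:385487-385587, strand +: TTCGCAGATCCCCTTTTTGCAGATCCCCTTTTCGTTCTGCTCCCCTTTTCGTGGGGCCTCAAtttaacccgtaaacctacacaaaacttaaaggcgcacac
Y62F5A.12, chrII:11534973-11535073, strand -: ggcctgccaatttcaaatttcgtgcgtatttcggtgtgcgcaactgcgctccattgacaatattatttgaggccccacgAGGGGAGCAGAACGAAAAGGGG
ttll-4, chrIII:10123772-10123872, strand +: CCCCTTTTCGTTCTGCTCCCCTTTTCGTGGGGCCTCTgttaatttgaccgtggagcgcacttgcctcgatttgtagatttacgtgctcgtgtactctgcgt

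The second set is shown because 6 summits carried nearly the same long block. Its 4 strongest members lay upstream of *mtcu-2* (predicted to modify mitochondrial tRNA), *F44E7.4*, *vps-39* (a vesicle tethering protein) and *unc-85* (a histone chaperone of the Asf1 family).
mtcu-2, chrII:10033633-10033733, strand -: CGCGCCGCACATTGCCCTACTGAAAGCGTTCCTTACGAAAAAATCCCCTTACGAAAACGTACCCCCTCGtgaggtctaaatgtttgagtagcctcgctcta
F44E7.4, chrV:5777094-5777194, strand -: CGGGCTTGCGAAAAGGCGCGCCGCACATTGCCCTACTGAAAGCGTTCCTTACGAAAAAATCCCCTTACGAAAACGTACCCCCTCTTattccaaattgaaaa
vps-39, chrV:14038834-14038934, strand -: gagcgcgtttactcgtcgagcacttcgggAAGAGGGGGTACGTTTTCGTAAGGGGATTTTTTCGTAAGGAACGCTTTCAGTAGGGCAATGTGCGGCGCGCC
unc-85, chrII:4701717-4701817, strand +: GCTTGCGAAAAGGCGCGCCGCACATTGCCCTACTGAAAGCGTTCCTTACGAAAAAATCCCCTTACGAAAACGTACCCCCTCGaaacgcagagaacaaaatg
In these 4 windows 69 to 86 bases were shared with another summit. The block ran with the gene at *mtcu-2*, *F44E7.4* and *unc-85* and against it at *vps-39*.

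The third set is a pair, *rpl-3* (a large-subunit ribosomal protein) and *cox-5A* (a cytochrome c oxidase subunit). It is shown because it holds the strongest of the 303 peaks, and of all 1815.
rpl-3, chrIII:3867533-3867633, strand +: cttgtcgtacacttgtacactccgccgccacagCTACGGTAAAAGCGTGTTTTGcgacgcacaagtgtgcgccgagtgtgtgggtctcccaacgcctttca
cox-5A, chrIII:12905158-12905258, strand +: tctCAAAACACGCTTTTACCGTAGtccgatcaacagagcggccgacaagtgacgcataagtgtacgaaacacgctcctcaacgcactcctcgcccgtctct
The 21 shared bases ran in opposite directions relative to the 2 genes. Their core of 16 bases was picked because both windows held it. It occurred 2 times in the genome, so both copies lay in these peaks by that choice.

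The fourth set lay upstream of *srbc-38* (a predicted chemoreceptor), *F20B6.6* and *bath-46*. It is shown because its capitals include TGGCCGAGTGG, which has the form TGGCNNAGTGG of the A box, part of the promoter that lies inside tRNA genes.
srbc-38, chrV:706590-706690, strand +: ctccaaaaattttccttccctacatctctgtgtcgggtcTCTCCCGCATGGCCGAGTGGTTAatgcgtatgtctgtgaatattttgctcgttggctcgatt
F20B6.6, chrX:4203076-4203176, strand -: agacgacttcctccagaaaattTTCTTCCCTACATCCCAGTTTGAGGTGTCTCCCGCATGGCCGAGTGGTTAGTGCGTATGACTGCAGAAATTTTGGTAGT
bath-46, chrII:1597259-1597359, strand +: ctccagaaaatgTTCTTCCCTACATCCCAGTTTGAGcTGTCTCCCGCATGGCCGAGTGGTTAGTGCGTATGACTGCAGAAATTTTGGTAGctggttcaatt

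The remaining sequences are further strong summits in the lists of both replicates, and the strongest chaperone gene. The sequence at *rpa-2*, which was among the strongest, is not printed. *mog-4* encodes an RNA helicase of pre-mRNA splicing, *rpl-35* and *rps-28* encode ribosomal proteins, *nspc-17* encodes a nematode-specific peptide, and *hsp-1* encodes the constitutive Hsp70.
mog-4, chrII:14561806-14561906, strand -: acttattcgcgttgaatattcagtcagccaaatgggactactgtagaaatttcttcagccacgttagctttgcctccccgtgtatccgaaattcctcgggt
rpl-35, chrIII:7854640-7854740, strand +: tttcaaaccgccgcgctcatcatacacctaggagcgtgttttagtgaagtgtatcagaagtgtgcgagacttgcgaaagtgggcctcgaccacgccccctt
nspc-17, chrX:14525850-14525950, strand -: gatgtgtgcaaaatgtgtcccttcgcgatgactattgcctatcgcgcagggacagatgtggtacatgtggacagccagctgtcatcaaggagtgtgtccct
rps-28, chrIV:1659205-1659305, strand +: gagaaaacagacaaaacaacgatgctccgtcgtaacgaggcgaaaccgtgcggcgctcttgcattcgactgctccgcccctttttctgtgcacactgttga
hsp-1, chrIV:17278523-17278623, strand +: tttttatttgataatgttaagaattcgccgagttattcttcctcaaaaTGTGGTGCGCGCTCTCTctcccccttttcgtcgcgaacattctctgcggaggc
Of the 11 printed windows chosen by signal or list, 7 shared bases with another of the 303 summits. The *mog-4* window shared none with them, but 81.4% of its stretches of 16 bases occurred again somewhere in the genome.

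Peak signal is the deposited value of the authors' peak caller. Its scaling is not stated in the sources used here, so it is compared only within a list. Across the 303 summits the signal ran from 5.87 to 697, with a median of 100.7 and quartiles of 82.3 and 136. The median was 105 over all 1815 peaks, 114 at divergent promoters and 81.2 at summits just downstream of a 5′ end. *rpl-3* had a signal of 697 in the series list, 345 in the ranked list of replicate 1 and 362 in that of replicate 2. *mtcu-2* had 545 in the series list, 317 in replicate 1 and 226 in replicate 2. *eel-1* had 519 in the series list, 293 in replicate 1 and 255 in replicate 2. All 3 were in the thresholded lists of both replicates. *mog-4* also reached 519 in the series list, with 345 in replicate 1 and 174 in replicate 2. *rpa-2*, which encodes a subunit of the single-strand binding protein of DNA replication, had 449, with 263 in replicate 1 and 185 in replicate 2. The values of these 4 genes after *rpl-3* were higher in the list of replicate 1, which cannot be read as a difference between replicates because the lists may be scaled differently.

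The next genes in order of signal were *rpl-35* with 433, *rps-24* with 369, *nspc-17* with 352, *cox-5A* with 304 and *rps-28* with 300.04. The other summits among the 20 strongest had signals of 245 to 297. They lay upstream of *Y62F5A.12*, *fbxb-58* (an F-box protein), *cnk-1* (a scaffold of Raf signalling), *F44E7.4*, *vps-39*, *Y39E4B.6*, *unc-85*, *eel-1* a second time, *serp-1.1* and *vig-1* (a component of the RNA-induced silencing complex). All 20 were in the lists of both replicates. The *mtcu-2* summit lay in an intron of *let-268*, which encodes a collagen-modifying enzyme, and the other 19 were intergenic.

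**Figure D1:**
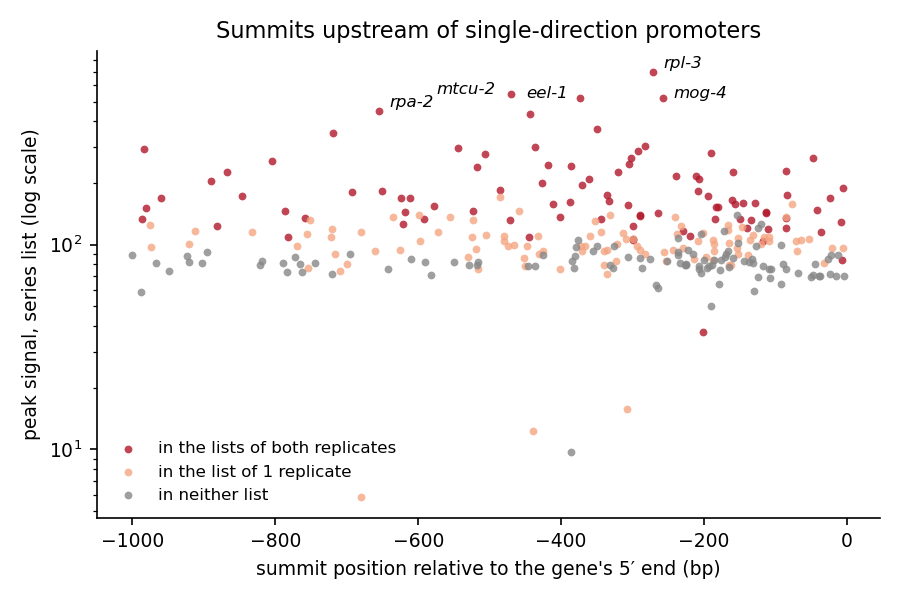
Position of each of the 303 summits relative to the annotated 5′ end of its gene (x axis, bp, the gene to the right of 0) against the peak signal in the series list (y axis, log scale). Colours show presence in the thresholded lists of the replicates. High signals occurred at all distances, and 5 peaks with signals of 5.87 to 37.4 lay below the rest.

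The summits were spread over the whole interval upstream of the genes. The median distance to the 5′ end was 299 bp, with quartiles of 164 and 518 bp, against a median of 180 bp at divergent promoters, where the rule makes short distances more likely. Of the 303 summits, 36 lay up to 100 bp upstream, 96 more lay up to 250 bp, 90 more up to 500 bp and 81 more up to 1000 bp. Median signal in these 4 bins was 94.5, 99.5, 104.5 and 108. In the lists of both replicates were 11 (30.6%), 24, 33 (36.7%) and 26 (32.1%) of these summits, and the exact 95% intervals of all 4 bins overlapped. The median distance to the start codon was 374 bp. At the distance limit, *egl-3* (a neuropeptide-processing protease) was included at 1000 bp with a signal of 88.7, and *mtm-3* was left out at 1008 bp with 131.

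Most of the summits were intergenic, 273 of 303 (90.1%), against 58.6% of all 1815, a contrast that the positional rule itself favours. There were 19 summits in introns, 5 in 3′ UTRs, 3 in coding exons, 2 in 5′ UTRs and 1 in another exon, all of other genes. The nearest gene upstream was on the same strand for 201 summits and on the opposite strand for 102. The gap to that gene had a median of 807 bp on the same strand and 4025 bp on the opposite strand. For 16 of the 102 this gene overlapped the 5′ end of the summit's gene, so the gap was set to 0 bp. The same held for 3 of the 201. Of the 195 genes with a same-strand neighbour, 71 (36.4%) had a gap of at most 500 bp. Operons were not tested. A 5′ UTR was annotated for 268 of the 291 genes (92.1%), against 77.4% of all 19973 protein-coding genes. Within 200 bp of 39 summits lay the 5′ end of another kind of noncoding RNA or pseudogene, of which 32 were unclassified ncRNA genes.

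There were 11 genes with more than 1 of these summits. *eel-1* had summits 373 and 805 bp upstream with signals of 519 and 256, and both carried the block shown above. *Y62F5A.12* had signals of 297 and 105, and *C26B2.7* had 200.5 and 70.3. In 6 of the 12 neighbouring pairs the peaks themselves overlapped, by 96 to 105 bp, with summits 199 to 208 bp apart. These overlapping pairs included the 5 lowest signals of all 303. They are weak peaks beside a stronger one at *R11A5.6*, *vem-1*, *Y69A2AR.31*, *edc-4* and *npp-18*, so they do not add genes.

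A minority of the summits, 94 of 303 (31.0%, exact 95% interval 25.9% to 36.6%), were in the thresholded lists of both replicates. The same was true of 38.5% of all peaks. Replicate 1 alone held 46, replicate 2 alone held 57, and 106 (35.0%) were in neither, so these passed only when the replicates were analysed together. The conservative list held 247 (81.5%), against 82.9% of all peaks. Presence went with signal. In the highest quartile of signal, 136.7 and above, 68 of 76 summits were in both lists. In the next quartile there were 24 of 76, and in the lower 2 quartiles 1 of 75 and 1 of 76. The 1 in the lowest quartile was the weak *npp-18* peak that overlaps a stronger one.

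Against divergent promoters the share in both lists was lower, 31.0% against 99 of 236 (41.9%), a difference of −10.9 percentage points (adjusted p = 0.0223 by Fisher's exact test, both sides, over 6 comparisons). Against summits just downstream of a 5′ end it was higher, 31.0% against 24 of 178 (13.5%), a difference of 17.5 points (exact test, adjusted p = 3.13e-05). The conservative list held 81.5% against 111 of 178 (62.4%) downstream, a difference of 19.2 points (exact test, adjusted p = 2.92e-05). Against divergent promoters the difference in the conservative list was −5.77 points, 81.5% against 87.3%, and did not pass (exact test, adjusted p = 0.109). To leave out a replicate, the peaks of the other replicate's list were classed instead. Their share in the list of the replicate left out then took the place of the share in both lists. Without replicate 1 this difference was −4.84 points from divergent promoters and 9.83 points from downstream summits, and neither passed (exact tests, adjusted p = 0.648 each). The conservative difference from downstream summits was then 12.5 points (exact test, adjusted p = 0.353). Without replicate 2 the difference from divergent promoters in the share so replaced was −10.4 points (exact test, adjusted p = 0.127), and both downstream differences passed. These tests count peaks and do not cover variation between worm cultures. Among peaks at or above the series median signal, 65.7% of the single-direction summits were in both lists, and none of the 6 differences passed. There the differences in both lists were −6.83 points from divergent promoters and 5.09 points from downstream summits (exact tests, adjusted p = 0.712 and 1). Signal moved with these shares, and its part in them was not tested beyond that subset.

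**Figure D2:**
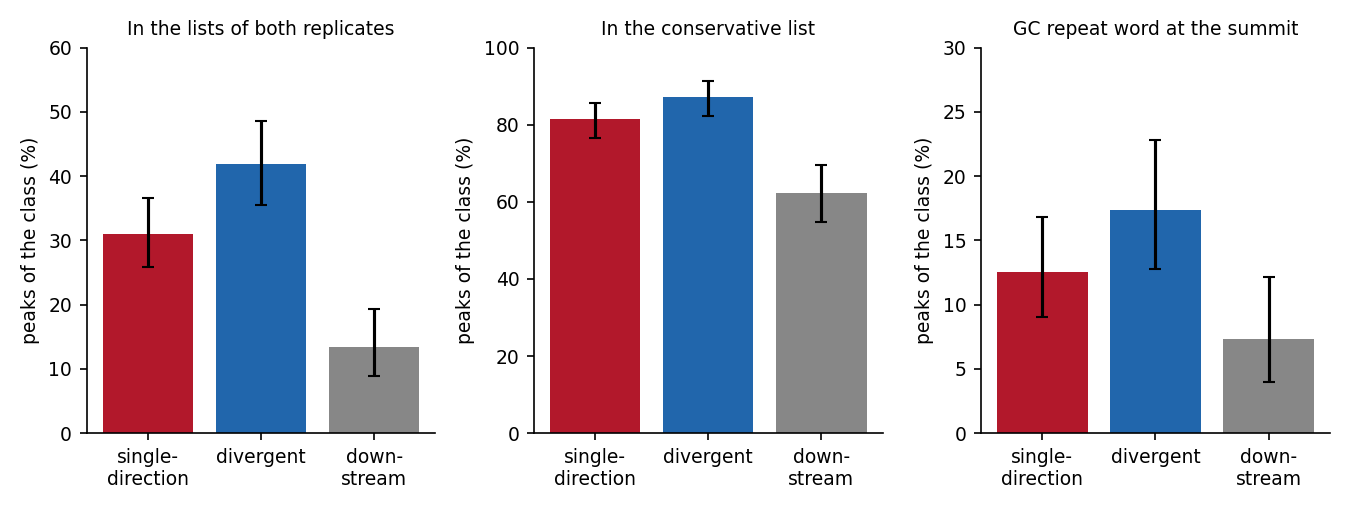
Share of peaks (%) in the lists of both replicates, in the conservative list and with a GCGCGC word within 50 bp of the summit, for 303 single-direction, 236 divergent and 178 downstream summits. Bars are shares and lines are exact 95% intervals for counting of peaks. Single-direction summits stood between the other classes in all 3 panels.

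The ranked lists, which go far below the thresholds, held 302 of the 303 summits in replicate 1 and 300 in replicate 2. Signals there ran from 24.9 to 345 in replicate 1, with a median of 59.4, and from 14.6 to 362 in replicate 2, with a median of 44.4. Over the 299 summits in both lists the rank correlation was 0.479, against 0.620 at divergent promoters, 0.0858 downstream of 5′ ends and 0.621 over the series. These are descriptions across peaks, which were selected on the same signals.

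**Figure D3:**
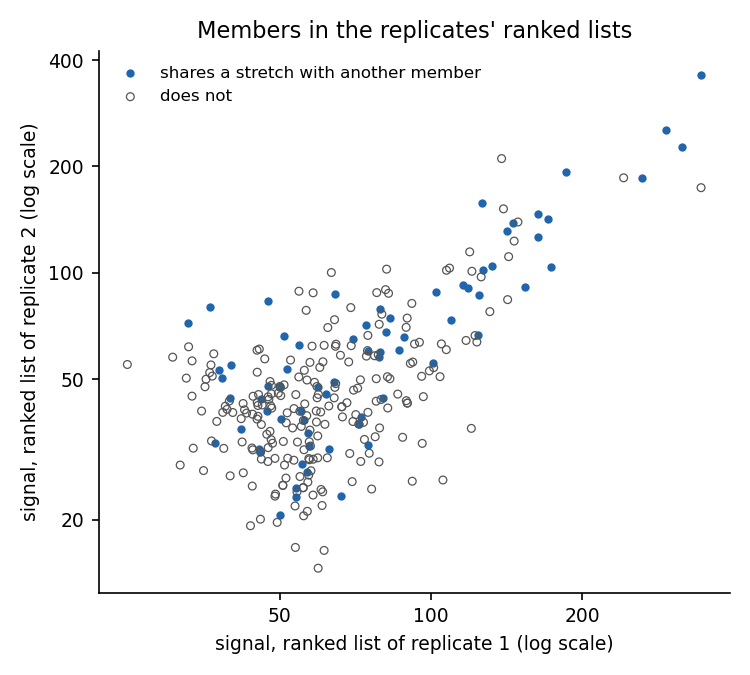
Signal of each summit in the ranked list of replicate 1 (x axis) and of replicate 2 (y axis), both on log scales, for the 299 summits found in both. Filled points share a stretch of 16 bases with another summit. The strongest summits were high in both lists, and the values scattered widely around the medians of 59.4 and 44.4.

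By chromosome, 55 of the summits were on I, 51 on II, 62 on III, 42 on IV, 36 on V and 57 on X. Chromosome V held 11.9% of the summits and 4994 of the 19973 protein-coding genes, while III held 20.5% of the summits and 13.2% of the genes. Of all 1815 peaks, 14.2% were on V and 18.1% on III, closer to the shares of the summits. The share in both replicates' lists was 14.5% on chromosome I (8 of 55, exact 95% interval 6.50% to 26.7%) and 47.2% on V (17 of 36, 30.4% to 64.5%), with 28.1% to 40.5% on the other chromosomes. This contrast was chosen after the values were seen and was not tested. Without chromosome I in any class, the difference from divergent promoters in both lists was −8.02 points and did not pass (exact test, adjusted p = 0.127).

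The centres of the peaks were rich in G and C. Mean GC content was 49.2% ± 8.40 (SD, n = 303 windows) within 50 bp of the summit and 34.0% ± 8.42 in a window centred 300 bp farther from the gene. It was 36.1% ± 8.77 in the window 300 bp nearer the gene. As the median summit lay 299 bp upstream, that window was often centred past the 5′ end. At 270 of 303 summits the centre was richer than the farther window. Placed 299 bp upstream of all 19973 protein-coding genes, the same window had 34.4%. The GC content at the summit was not particular to this class. Its mean was 49.8% at divergent promoters, 47.9% downstream of 5′ ends and 49.7% over all 1815 peaks.

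Words of 6 letters, each joined with its reverse complement, were counted as present or absent in those windows. Of 2080 words, 232 were more frequent at the summit than 300 bp farther from the gene (11.2%) and 150 were less frequent (7.21%; two-sided exact McNemar test, adjusted p at most 0.05). Of these, 149 and 93 also passed against the window nearer the gene, where the direction was not checked. The call followed base composition. Among the 36 words made of G and C alone, 16 were more frequent and 0 less frequent, and among the 36 made of A and T alone 0 were more frequent and 32 less frequent. GAGCGC was at 58 summits, against 6 windows farther from the gene (exact test, adjusted p = 2.13e-09) and 5 nearer, and in 1.71% of windows upstream of all genes. ACGCAG was at 47 summits against 4 windows (exact test, adjusted p = 2.90e-08), with 2.44% upstream of all genes. GCGCGC, which can overlap GAGCGC, was at 38 summits against 3 windows (exact test, adjusted p = 3.28e-07), with 0.976% upstream of all genes. GAGAGA was at 61 summits against 23 windows (exact test, adjusted p = 3.30e-04), with 6.11% upstream of all genes.

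AT-rich words were depleted at the summits. TAAAAA was at 35 summits against 116 windows farther from the gene (exact test, adjusted p = 3.53e-10), and TATAAA, the core of the TATA box, was at 8 against 39. Of the homeodomain words, TAATTA was at 7 summits against 13 windows, which did not pass (exact test, adjusted p = 0.519), and TAATGA was at 4 against 18 (exact test, adjusted p = 0.0284).

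**Figure D4:**
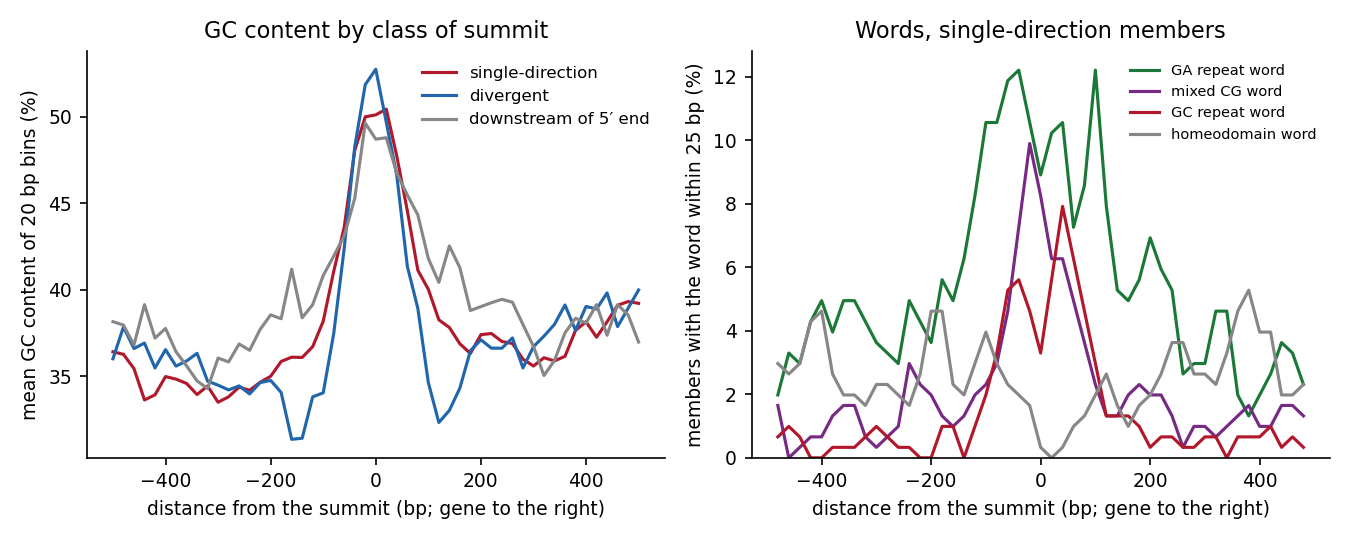
Left, mean GC content (%) in 20 bp bins by distance from the summit, for the 3 classes of summit. Right, share (%) of the 303 single-direction summits with a word in the 51 bp around each position; the GA repeat word is GAGAGA, the mixed CG word ACGCAG, the GC repeat word GCGCGC and the homeodomain word TAATTA. GC content peaked near 50% at the summit, and GCGCGC reached 5.61% at 40 bp before it and 7.92% at 40 bp after it, with 3.30% at the summit itself.

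Of the 303 summits, 124 held within 50 bp at least 1 of ACGCAG, the palindrome GCGCGC and the repeat GAGAGA, and 179 held none. GCGCGC stood alone at 26, ACGCAG at 33 and GAGAGA at 46, and 19 held a combination. Summits with GCGCGC had a median signal of 136 against 98.6 without it, and 19 of the 38 were in the highest quartile of signal. Summits with ACGCAG had a median signal of 86.7 against 103.8 without it, and 66.0% of them were in the conservative list against 84.4%. These words were picked after their counts or earlier results were seen, so the contrasts are descriptions. GCGCGC was found at 38 of 303 single-direction summits (12.5%, against 8.98% of all peaks), 41 of 236 divergent summits (17.4%) and 13 of 178 downstream summits (7.30%). Neither difference passed (exact tests, adjusted p = 0.140 and 0.109).

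Sharing of longer sequence was examined after the windows had been seen. At 71 of 303 summits (23.4%) the window shared at least 1 stretch of 16 bases with another of these summits more than 1000 bp away. The same held within the set of windows 300 bp farther from the gene for 32 (10.6%), and within the set nearer the gene for 18 (5.94%). Among themselves, divergent summits shared stretches at 63 of 236 (26.7%) and downstream summits at 12 of 178 (6.74%). The smaller classes offer fewer partners, and no difference between classes was tested. The 71 had a median signal of 117 against 97.6 for the other 232, and 34 (47.9%) were in both replicates' lists against 60 (25.9%). Sharing was found at 29, 17, 16 and 9 summits in the quartiles of signal from highest to lowest.

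The 71 summits formed 23 groups, 16 of them pairs. The most shared stretch of each group, its core, was picked from these summits, so its copies there lay in peaks largely by that choice. The *eel-1* group had 13 summits at 10 genes, among them *rps-24* and *rpl-29*, with signals of 64.3 to 519. Its most shared stretch was at 9 of these summits. That stretch occurs 90 times in the genome, all in sequence that the reference marks as repetitive, and 23 of the copies lay in one of the 1815 peaks. The *mtcu-2* group had 6 summits at 6 genes on 3 chromosomes, with signals of 127 to 545. The other 2 genes were *npp-18* (a nucleoporin) and *F09E5.8*. Its core occurs 19 times in the genome, none in sequence marked as repetitive, and 11 of the copies (57.9%) lay in a peak. Of these 11, 6 were at the summits described here, 2 at divergent promoters and 3 in peaks farther than 1000 bp from a protein-coding 5′ end. The core ran with the gene at 5 of the 6 summits. At all 6 the window held a stretch of 50 bases that occurs again in the genome.

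The *srbc-38* group had 4 summits with signals of 73.5 to 155. Its core occurs 51 times in the genome, all in sequence marked as repetitive. Of these copies, 27 (52.9%) lay in a peak, 4 at the summits described here and 23 in peaks farther than 1000 bp from a 5′ end. The TGGCNNAGTGG form of the A box, searched on both strands, was at 7 of the 303 summits. It was in 1 window farther from the gene, in 0 nearer windows and in 0.0651% of windows upstream of all genes. Among the other peaks it was at 51 of the 514 near tRNA, snoRNA or snRNA genes (9.92%), 38 of 584 far from 5′ ends (6.51%), 2 of 178 just downstream of a 5′ end (1.12%) and 0 of 236 at divergent promoters. The 7 genes were *sms-3*, *srbc-38*, *Y69A2AR.31*, *F20B6.6*, *bath-46*, *Y22D7AL.6* and *Y116A8A.150*. A match to these letters does not show that a tRNA is made there.

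The other groups of 3 or more were led by *spc-1*, *pqn-51*, *cnk-1* and *wwp-1*. The *spc-1* group (alpha spectrin) was joined by runs of AC repeats, whose stretch of 16 bases occurs 2885 times in the genome when overlapping copies are counted. The *wwp-1* group, with *tba-2* (an alpha tubulin) and *icd-2*, shared a stretch that occurs 4 times in the genome. Of these copies, 3 were in the peaks of the group from which the stretch was picked. The other 1 lay in a peak at a divergent promoter. Pairs included *rpa-2* with *mcm-4*, both genes of DNA replication, and *hsp-1* with *tos-1*. The core of the *rpa-2* pair occurs 9 times in the genome, and 6 copies lay in a peak. Besides the 2 of the pair, 2 were just downstream of a 5′ end and 2 were farther than 1000 bp from one. On average 21.1% of the bases at summits were marked as repetitive, against 39.7% in the windows farther from the gene and 35.7% of the genome. At 32 summits (10.6%) the window held a stretch of 50 bases that occurs again in the genome, and 13 of these were in both replicates' lists. The read length and the handling of reads that map to several places were not stated in the labels or file headers, and their part in the signal at such summits was not tested.

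**Figure D5:**
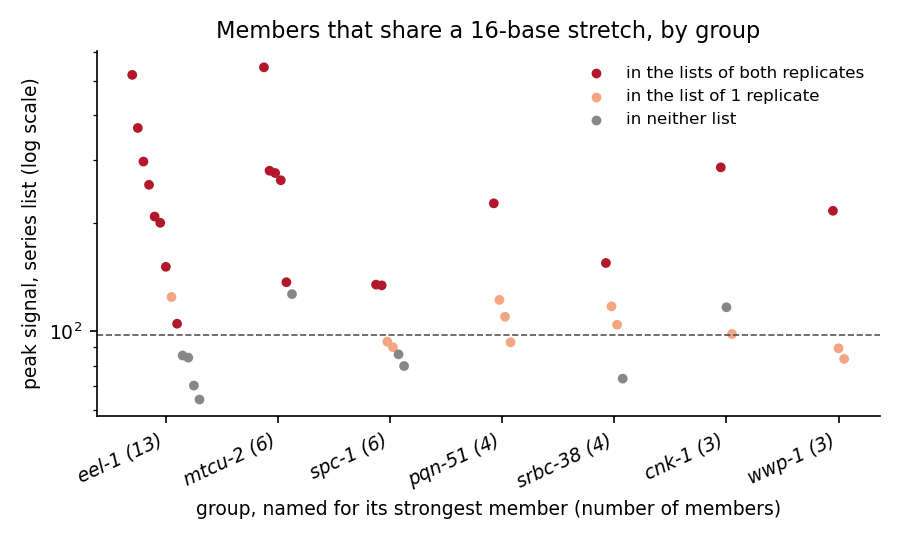
Signal in the series list (log scale) of each summit in the 7 groups of 3 or more summits that share a stretch of 16 bases, named for the strongest summit of the group. Colours show presence in the replicates' thresholded lists, and the dashed line is the median of the 232 summits that share none (97.6). The *eel-1* group spanned 64.3 to 519, and all 6 summits of the *mtcu-2* group lay above the line.

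Of all 19973 protein-coding genes, 1.46% were the nearest gene of one of the summits. At divergent summits, where the genes on both sides are counted, lay 445 of the 19973. At downstream summits, where only the nearest gene is counted, lay 165. Among cytosolic ribosomal protein genes the count was 11 of 80 (13.8%), with *rpl-3*, *rpl-35* and *rps-24* the strongest, and 20 genes of the list lay at divergent summits and 12 at downstream summits. The count was 7 without replicate 1 and 10 without replicate 2. Their median signal was 123, and 6 of the 11 were in both replicates' lists. None of the 11 held GCGCGC or ACGCAG, and 2 held GAGAGA. Of the 11 genes, 7 had no shared stretch. Among pre-mRNA splicing factors the count was 8 of 73 (11.0%), with *mog-4* at 519, *rsp-6* (an SR protein) at 118 and *hrpu-2* at 105, and 1 of the 8 was in both lists. In this list 9 genes lay at divergent summits and 2 at downstream summits. The splicing count was 2 without replicate 1 and 4 without replicate 2. Mitochondrial ribosomal proteins had 3 of 66, led by *mrpl-15* at 137, then *mrpl-32* and *mrpl-28* at 98.1 and 78.9. Translation factors had 3 of 34, namely *eef-1A.2* at 100.7, *eif-3.B* at 91.7 and *eif-3.C* at 85.2. Respiratory chain genes had 3 of 53, namely *cox-5A* at 304, *nduf-9* at 182 and *cox-4* at 86.5. RNA polymerase and general transcription genes had 3 of 76, namely *rpb-11* at 143, *rpac-19* at 93.2 and *taf-12* at 88.3.

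Chaperones had 1 of 70 (1.43%), *hsp-1* at 241. At divergent summits, where the genes on both sides are counted, lay 15 of the 70, against 445 of all 19973 genes. Histones had 2 of 61, *hcp-3* at 89.9 and *his-24* at 88.6, and the proteasome had 1 of 33, *pbs-3* at 111. Nuclear hormone receptors had 4 of 274 (1.46%), led by *nhr-48* at 116, *nhr-49* at 94.3 and *nhr-141* at 82.4. Homeobox genes had 1 of 99, *ceh-39* at 102. Chemoreceptors had 1 of 1293, *srbc-38* at 155, and the joint list of F-box and C-type lectin genes had 1 of 552, *fbxb-58* at 294. There were 0 of 31 aminoacyl-tRNA synthetases, 0 of 177 collagens and 0 of 22 cholinergic motor neuron genes. Among pan-neuronal and synaptic genes the count was 4 of 30 (13.3%, exact 95% interval 3.76% to 30.7%). They were *unc-11* (a clathrin adaptor) at 100.3, *egl-3* at 88.7, *ehs-1* (an endocytic adaptor) at 81.2 and *ida-1* (a dense-core vesicle protein) at 72.5. None of these 4 was in both replicates' lists, and 2 were in the conservative list. The lists were chosen with earlier results of these data known, so the counts are descriptions and no list was tested.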

How the data were processed

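Chromatin immunoprecipitation with sequencing gave 6 deposited peak lists that were used here, all on ce11: for each replicate a ranked and a thresholded list from the irreproducible discovery rate (IDR) procedure, and for the series a thresholded and a conservative thresholded list. Per the labels, fragments came from sonication. Peaks were called per replicate and on both replicates together. Aligner, peak caller and depth were not given in the sources used here and the control was not analysed, so no interval that needs depth is given. Signal is the deposited value of the authors' caller. The replicates' thresholded lists held 1014 and 1119 peaks and their ranked lists 69586 and 48662.

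A summit is the start of a deposited peak plus its offset. Genes came from Ensembl release 115 (WBcel235) and sequence from RefSeq. A peak was in another list when at least 1 bp overlapped. A replicate's signal is that of its strongest overlapping ranked peak. Python 3.11.15, numpy 2.4.6, scipy 1.17.1 and pandas 2.3.3 were used. Classes were compared by 6 two-sided Fisher's exact tests and words by exact McNemar tests, with Benjamini-Hochberg adjustment over the 6 and over the 2080 words and a threshold of 0.05. Both were tested on simulated data. Intervals are exact (Clopper-Pearson, 95%) and cover counting of peaks.

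The genes named are those of the 20 strongest summits, the 3 strongest in each of 17 gene lists, the summits at the distance limit and the 3 strongest genes with several summits, together with genes of shared-sequence groups, the 7 genes with the A box form, the genes of the weakest overlapping peaks and *ida-1*, which were added after their values were seen. The members and lists were chosen with earlier results of these data known. Alternatives changed the distance, strand and small RNA limits, the transcript ends, the signal, the window and the replicates. The 2 ranked lists of the series were not used.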

Additional observations from a re-analysis of the deposited data

How the results depend on the processing

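No paired analysis was possible because both samples belong to 1 group. Leaving out a replicate kept 147 to 167 summits at 144 to 161 genes and 34 to 107 more frequent and 34 to 79 less frequent words. In those settings the share in both lists became that in the other replicate's list, 56.9% to 64.6% of summits. The conservative share was then 85.03% to 90.5%. Differences from divergent promoters in both lists were −10.4 to −4.84 points and did not pass. Differences from downstream summits were 9.83 to 30.01 points in both lists and 12.5 to 31.5 points in the conservative list, and the lower value of each, without replicate 1, did not pass. The cause was not tested.

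The difference from divergent promoters in both lists was also lost with an opposite-strand limit of 1000 bp (−9.56), without the small RNA limit (−5.05, with 38.6% in both lists), above the series median signal (−6.83) and without chromosome I (−8.02). In the conservative list that difference passed with a distance limit of 2000 bp (−7.35), with all transcripts' 5′ ends (−7.83) and without summits sharing 16 bases (−8.41). The GCGCGC difference from downstream summits passed without the small RNA limit (5.77), with all transcripts (8.50) and without chromosome I (10.4). That from divergent promoters passed with windows of 25 bp to each side (−6.02).

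Above the series median signal 137 summits at 134 genes remained, with 65.7% in both lists, 97.8% in the conservative list, 17.5% with GCGCGC and 58 and 52 words called. The differences from downstream summits were then 5.09 and 6.90 points. GCGCGC was at 18.5% and 3.30% of summits with windows of 100 and 25 bp to each side. Those of 100 bp gave 226 less frequent words, and those of 25 bp gave 83 more and 65 less frequent. Sharing was found at 245 summits with stretches of 12 bases, 40 with 20 bases, 30 and 120 with windows of 25 and 100 bp, and 23 within those in both replicates' lists. Of the alternatives, those on chromosome I and on sharing were chosen after the data were seen. No direction reversed.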
